A study of Mus musculus with 2 samples.

Results

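The cytosolic translation initiation and elongation factors were described in newborn mouse forebrain at an input of RNA close to that of 1 cell. The members were the nuclear protein-coding genes whose symbols begin with Eif followed by a digit from 1 to 6 or with Eef followed by 1 or 2, leaving out the X- and Y-linked copies of the eIF2 gamma subunit gene. They were 65 of the 21461 nuclear protein-coding genes in the gene tables of both libraries, with 53 Eif and 12 Eef genes. Besides factor subunits, the symbols take in kinases, eIF4E-binding proteins and methyltransferases that act on the factors. The rule used names and no measured value, but it was set with earlier results of these data known.

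The material was total RNA from whole forebrain of mice of strain B6NCrl at postnatal day 0, of RNA longer than 200 nt, with 13 pg (1 cell-equivalent) going into each library. One library came from pup 1 (replicate 1) and the other from pup 3 (replicate 2), and no allele or treatment is named for either. A single donor identifier stands on both libraries although their descriptions name different pups, and the 2 libraries form 1 group. There is therefore no contrast between conditions and no test between the pups, and biological and technical spread cannot be told apart. Expected counts, which are estimated reads, summed to 41082811 in pup 1 and 29881397 in pup 3. Of the TPM, spike-ins held 4.46% and 7.30%, and mitochondrial genes 5.02% and 6.0%. Levels are TPM, a measure per length that sums to the same total in each library, so levels of different genes can be set side by side. The labelled tissue was checked against markers: 7 of 8 pan-neuronal and 5 of 5 telencephalic markers reached 1 TPM in both pups, against 24.7% of all genes. The other lists ran from 0 of 4 skeletal muscle markers to 5 of 5 radial glia and astrocyte and 5 of 5 erythroid markers. These counts alone do not single out the tissue. In bulk RNA, fewer cells of a type and less RNA per cell cannot be told apart.

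Protein synthesis starts when initiation factors load the initiator tRNA on the small ribosomal subunit, bring the subunit to a capped mRNA and move it to a start codon. Elongation factors then deliver each aminoacyl-tRNA and move the ribosome along by codons. In neurons eEF1A comes from a pair of genes: Eef1a1 is used widely in development, and Eef1a2 is known from mature neurons and muscle. Phosphorylation of eIF2 and of eEF2, and the binding of eIF4E by its inhibitors, are the best known brakes on these steps.

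The genes Eef1a1 (ENSMUSG00000037742, chr9:78478449-78489151) and Eef1a2 (ENSMUSG00000016349, chr2:181147653-181157014) both lie on the minus strand in the GRCm38 (mm10) annotation. Their coding sequences are 1389 and 1392 nt long, encode 462 and 463 codons and are 80.0% identical. The longest run of bases they share is 23 nt, which bears on how well reads tell the genes apart. The first 90 coding bases of each, from GENCODE M21 transcripts, are shown 5′ to 3′ because of all pairs of related members compared these genes lay furthest apart in each pup. Capitals mark the bases that differ.
Eef1a1, chr9:78480565-78480654, minus strand: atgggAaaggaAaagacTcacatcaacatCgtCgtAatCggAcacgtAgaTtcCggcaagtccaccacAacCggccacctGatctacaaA
Eef1a2, chr2:181155317-181155406, minus strand: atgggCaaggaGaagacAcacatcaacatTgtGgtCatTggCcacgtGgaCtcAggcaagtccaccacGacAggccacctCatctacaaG
In this stretch all 15 differences stand at the third base of a codon. Over the whole coding sequence 224 of 276 mismatched bases (81.2%) do.

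Eef1a1 was the highest member by far, while Eef1a2 was low in pup 1 and not detected in pup 3. Eef1a1 had 6675 TPM in pup 1 (260780 reads) and 3392 TPM in pup 3 (108697 reads), a mean of 5033 ± 2322 TPM (SD, n = 2), which ranked 5 among the 21461 genes. The level in pup 1 was 1.97 times that in pup 3, just inside a 2-fold difference, and over protein-coding transcripts alone the log2 ratio, pup 3 over pup 1, was -1.10, just past it. Eef1a2 had 4.46 TPM in pup 1 (235 reads), with deposited credibility bounds of 3.83 and 4.95 TPM, and 0 reads in pup 3. Both pups had the same order of the genes. Within pup 1 the level of Eef1a1 was 1497 times that of Eef1a2. In pup 3 it was at least 52008-fold higher, taking for Eef1a2 the level of 3 reads, 0.0652 TPM, as the upper limit that 0 reads allow (counting error only). Eef1a1 has 4 pseudogenes that share 200 nt or more at 95% identity or more, and these summed to 27.7 TPM in pup 1 and 14.2 TPM in pup 3, or 0.415% and 0.420% of its level. How reads that match several genes were handled is not stated in the sources used here, so the split between Eef1a1 and these copies is uncertain.

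Eef1a2 is also known from skeletal muscle, and a mature-neuron marker can be set beside it. Of 4 skeletal muscle markers, 1 reached 1 TPM in pup 1 and 0 in pup 3. Their summed level was 19.5 and 0.260 TPM, most of it Acta1 (18.8 and 0.0300 TPM), while Myh3 and Tnnt3 had 0 reads in both pups. Rbfox3, which encodes the neuronal protein NeuN, was also seen in pup 1 alone, at 13.1 TPM, with 0 reads in the other library. Rbfox3 was the only pan-neuronal marker of 8 with that pattern. The other 7 were found in both pups, 5 of them higher in pup 1 and 2 higher in pup 3. By comparison, pup 3 lacked reads for 26.9% of the nuclear protein-coding genes that reached 10 TPM in its counterpart. Whether muscle or mature neurons bear on the Eef1a2 reads was not tested.

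**Figure D1:**
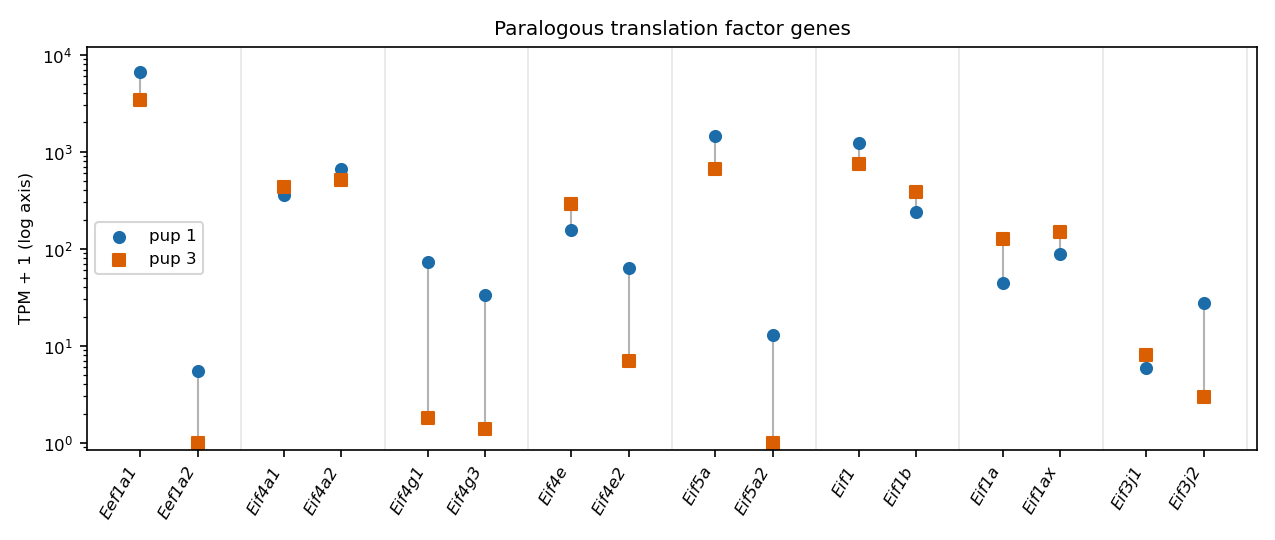
Levels of 8 pairs of related translation factor genes in pup 1 (blue circles) and pup 3 (orange squares), as TPM + 1 on a log axis; grey lines join the pups and vertical lines part the pairs. Eef1a1 stands at 6675 and 3392 TPM against 4.46 and 0 TPM for Eef1a2, whereas Eif4a1 and Eif4a2 lie close together in both pups.

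Most members were found, where found means 1 TPM or more. Pup 1 had 56 members (86.2%, against 42.2% of all genes) and pup 3 had 45 (69.2%, against 28.9%). In both pups 42 members (64.6%) were found, against 24.7% of all nuclear protein-coding genes. Pup 1 alone had 14 members (21.5%, against 17.4% of all genes) and pup 3 alone had 3 (4.62%, against 4.22%), which were Eif2d, Eif3f and Eif4ebp2. Neither pup had Eef1akmt3, Eef2kmt, Eif2ak2, Eif2ak4, Eif3b or Eif4e1b (9.23% of members, against 53.6% of all genes). The median member level was 64.0 TPM in pup 1 and 85.3 TPM in pup 3, while the median over all genes was 0.0100 and 0 TPM. All members together made up 1.82% of the TPM total of pup 1 and 1.22% of that of pup 3.

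Detection of the members followed their level. Members of mean level 100 TPM or more were all found in both pups, 20 of 20 from 100 to 500 TPM (98.9% of all genes in that range) and 6 of 6 from 500 TPM (100% of all genes). From 50 to 100 TPM, 10 of 11 members (90.9%, against 91.5%) were found in both, and Eif2d was the exception. From 10 to 50 TPM the count was 5 of 12 (41.7%, against 53.1%), and from 1 to 10 TPM it was 1 of 10 (10%, against 15.2%). Beside all genes of like level, the members' shares were near the background. Other housekeeping sets of protein synthesis and turnover stood higher: 95.2% of 84 cytosolic ribosomal protein genes, 84.4% of 77 mitochondrial ribosomal protein genes and 82.1% of 39 proteasome subunit genes were found in both pups. Their median mean levels were 618, 73.7 and 271 TPM, against 66.2 TPM for the members.

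**Figure D2:**
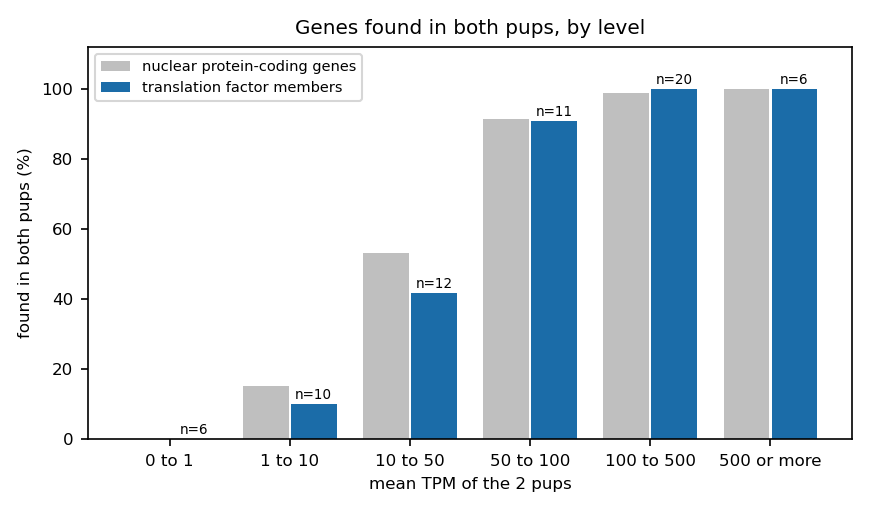
Share of genes found at 1 TPM or more in both pups (%, bars from 0) by mean TPM of the 2 pups, for all nuclear protein-coding genes (grey) and for translation factor members (blue), with the number of members above each blue bar. The blue bars stand at 41.7% of 12 members from 10 to 50 TPM and at 90.9% of 11 from 50 to 100 TPM, beside grey bars of 53.1% and 91.5%.

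Between pups, members were compared by log2((TPM in pup 3 + 1)/(TPM in pup 1 + 1)), a scale that understates the difference of low genes, at a mean level of 50 TPM or more, which 37 members reached. Of these, 8 (21.6%, against 23.4% of all genes) were 2-fold or more higher in pup 3: Eif1a, Eif2a, Eif2b2, Eif2d, Eif2s1, Eif3m, Eif5 and Eif6. Another 8 (21.6%, against 19.7%) were 2-fold or more higher in pup 1: Eef1g, Eef2, Eif3d, Eif3g, Eif3h, Eif3k, Eif3l and Eif5a. The other 21 (56.8%, against 56.9%) differed by less. The median log2 ratio was -0.12 over the members and 0.12 over all genes of that level, with SDs of 1.71 and 2.04. For 6 of the 37 (16.2%, against 10.3% of all genes) the order of the pups by TPM was not that by CPM: Eef1e1, Eif1ax, Eif2b1, Eif2s2, Eif3c and Eif4a2. By these counts the members differed between the pups about as often as other genes of that level. At the edge of the level limit, Eif3d (mean 56.3 TPM), Eif2s1 (59.8) and Eif5 (60.6) were the lowest members inside it, and Eef1akmt1 (45.0), Eif4b (44.4) and Eif4g1 (36.7) the highest outside it.

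**Figure D3:**
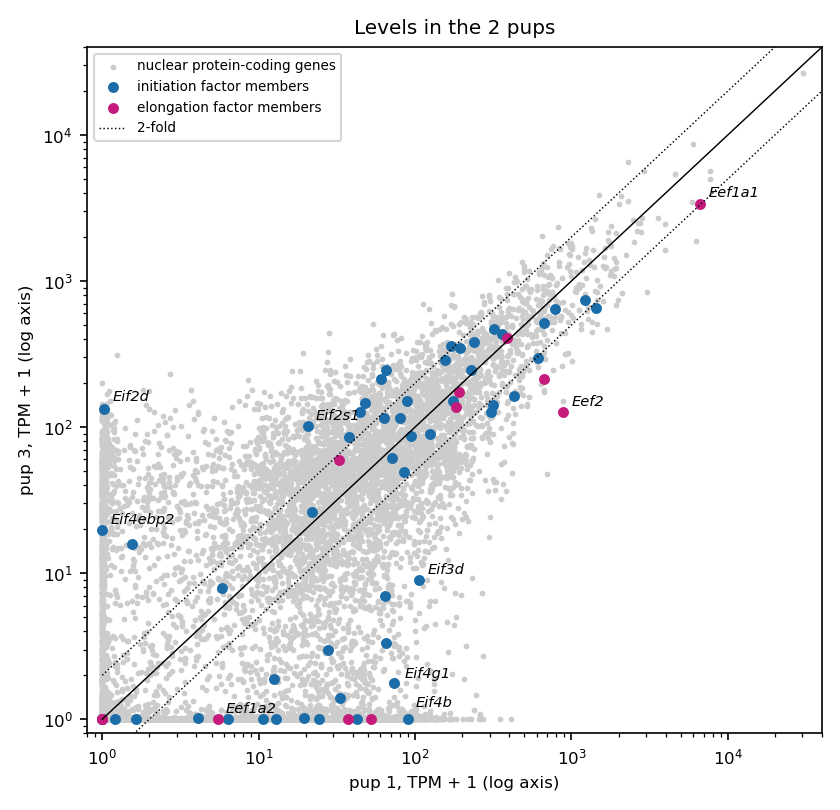
Each nuclear protein-coding gene (grey), initiation factor member (blue) and elongation factor member (magenta) by its level in pup 1 (x) and pup 3 (y), as TPM + 1 on log axes, with the line of equality (solid) and of a 2-fold difference (dotted). Eef2 and Eif3d lie far below the line (880.4 against 126 TPM, and 105 against 8.01 TPM), and Eif2d far above it (0.0300 against 132 TPM).

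The initiation factors that scan for the start codon were all found. Eif1, which guards start codon choice, had 1227 TPM in pup 1 and 740.2 TPM in pup 3 (mean 984 ± 344, SD, n = 2). Its paralogue Eif1b had 237 and 381 TPM. Eif1 was thus the higher gene of the pair in both pups, by 5.17-fold in pup 1 and 1.94-fold in pup 3, although the 2 genes had opposite orders between pups. Eif1 shares near-identical sequence with 10 other genes, whose levels summed to 124 and 8.35 TPM, so its exact level is uncertain. eIF1A, its partner on the small subunit, comes from Eif1a (43.3 and 126 TPM) and Eif1ax (87.2 and 149 TPM). Both were higher in pup 3 by TPM, but the order for Eif1ax depended on the measure: its reads were 11733 and 6135, or 286 and 205 CPM (reads scaled to the library total, not per length). Eif1ad, an eIF1A-like gene, stood near 20 TPM in both pups (20.9 and 25.2).

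The genes of eIF2, the carrier of the initiator tRNA, and of related tRNA factors were 4, all above a mean of 50 TPM. Of these, 3 were 2-fold or more higher in pup 3, as were 23.4% of all genes of that level. Eif2s1, the alpha subunit that the stress kinases phosphorylate, had 19.6 TPM in pup 1 and 100.1 TPM in pup 3, a 5.11-fold difference. Eif2s2, the beta subunit, differed little, at 93.1 and 85.3 TPM (mean 89.2 ± 5.52, SD, n = 2). The alpha and beta subunits of the same complex thus had opposite orders between pups by TPM, while CPM put Eif2s2 slightly higher in pup 3 (146 and 162). Eif2a, an alternative initiator tRNA factor, had 46.9 and 146 TPM, but less than a 2-fold difference over protein-coding transcripts alone (log2 ratio 0.61). Eif2d can also deliver tRNA to the ribosome; pup 1 had 1 read of it (0.0300 TPM) against 6074 reads (132 TPM) in pup 3. That made it the 1 member of 31 at 100 TPM or more in pup 3 that was under 1 TPM in pup 1 (3.23%, against 2.18% of all genes). Its lone read in pup 1 was assigned to a retained-intron transcript, while in pup 3 a pair of protein-coding transcripts held 54.2% and 45.2% of its TPM.

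By gene TPM, the 5 subunits of eIF2B, which recharges eIF2 with GTP, were even in pup 1 and uneven in pup 3. Over protein-coding transcripts alone they were less even in pup 1, where Eif2b2 had 31.2 TPM and Eif2b3 81.4 TPM. In pup 1 they ran from 64.0 TPM (Eif2b5) to 83.7 TPM (Eif2b3), a range of 0.38 on the log2(TPM + 1) scale. In pup 3 they ran from 2.33 TPM (Eif2b5) to 244 TPM (Eif2b2), a range of 6.20. The catalytic subunit Eif2b5 was the low one in pup 3, with 40 reads against 3204 in pup 1, a 27.5-fold difference in TPM. Eif2b2 had 64.0 TPM in pup 1 and was 3.81-fold higher in pup 3. Eif2b1 (70.1 and 60.4 TPM), Eif2b3 (83.7 and 48.6) and Eif2b4 (78.9 and 114) stayed within 2-fold.

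The eIF2 alpha kinases, which slow initiation under stress, were low. Eif2ak1, the heme-regulated kinase, stood at 41.4 TPM in pup 1 but had 0 reads in pup 3. Eif2ak3, known as PERK, had 11.5 and 0.90 TPM, Eif2ak2 had 9 reads in pup 1 and 0 in pup 3, and Eif2ak4, known as GCN2, had 0 reads in both. None of the 4 reached 1 TPM in pup 3, as 28.9% of all genes did. For Eif2ak4 the deposited posterior mean of 0.170 TPM in pup 1 carries credibility bounds of 0.0351 and 0.356 TPM, so its 0 reads leave room for a low level.

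The 14 genes of eIF3, the scaffold of the small subunit complex, were abundant as a group but far from even. In each pup 9 of 14 had 100 TPM or more, and the range over the subunits was 8.98 in pup 1 and 8.88 in pup 3 on the log2(TPM + 1) scale. The highest was Eif3k in pup 1 (606 TPM; 294 in pup 3) and Eif3i in pup 3 (469 TPM; 321 in pup 1). The lowest in both was Eif3b, a core scaffold subunit, with 15 reads in pup 1 (0.200 TPM) and 0 in pup 3. Eif3f was next to it in pup 1, at 0.550 TPM, with 14.8 TPM in pup 3. Genes for subunits of 1 complex were thus measured very unevenly within each library.

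Of 10 eIF3 subunits above 50 TPM, 5 were 2-fold or more higher in pup 1 (19.7% of all genes of that level) and 1 in pup 3 (23.4% of all genes). Eif3d, which can itself bind the cap, had 105 and 8.01 TPM (5029 and 336 reads), a 13.1-fold difference. Eif3g had 305 and 126 TPM, Eif3h 429 and 162 TPM, and Eif3l 316 and 140.4 TPM. These and Eif3k are the 5 subunits of that level that were 2-fold or more lower in pup 3, Eif3k only just (log2 ratio -1.04, and -0.99 by CPM with TMM factors). Eif3m was the reverse at 170 and 357 TPM. Eif3a (62.7 and 114 TPM) and Eif3e (194 and 347 TPM) were also higher in pup 3 but by less than 2-fold. Eif3c had 175 and 151 TPM and, by CPM, 372 and 384, so its order is not settled by scaling. Eif3j1 and Eif3j2 have coding sequences 99.2% identical, with 784 nt in 1 unbroken run, so reads cannot be split safely between them. Their values (4.83 and 6.93 TPM, and 26.6 and 1.96 TPM) are uncertain, and their sum was 31.4 TPM in pup 1 and 8.89 TPM in pup 3.

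**Figure D4:**
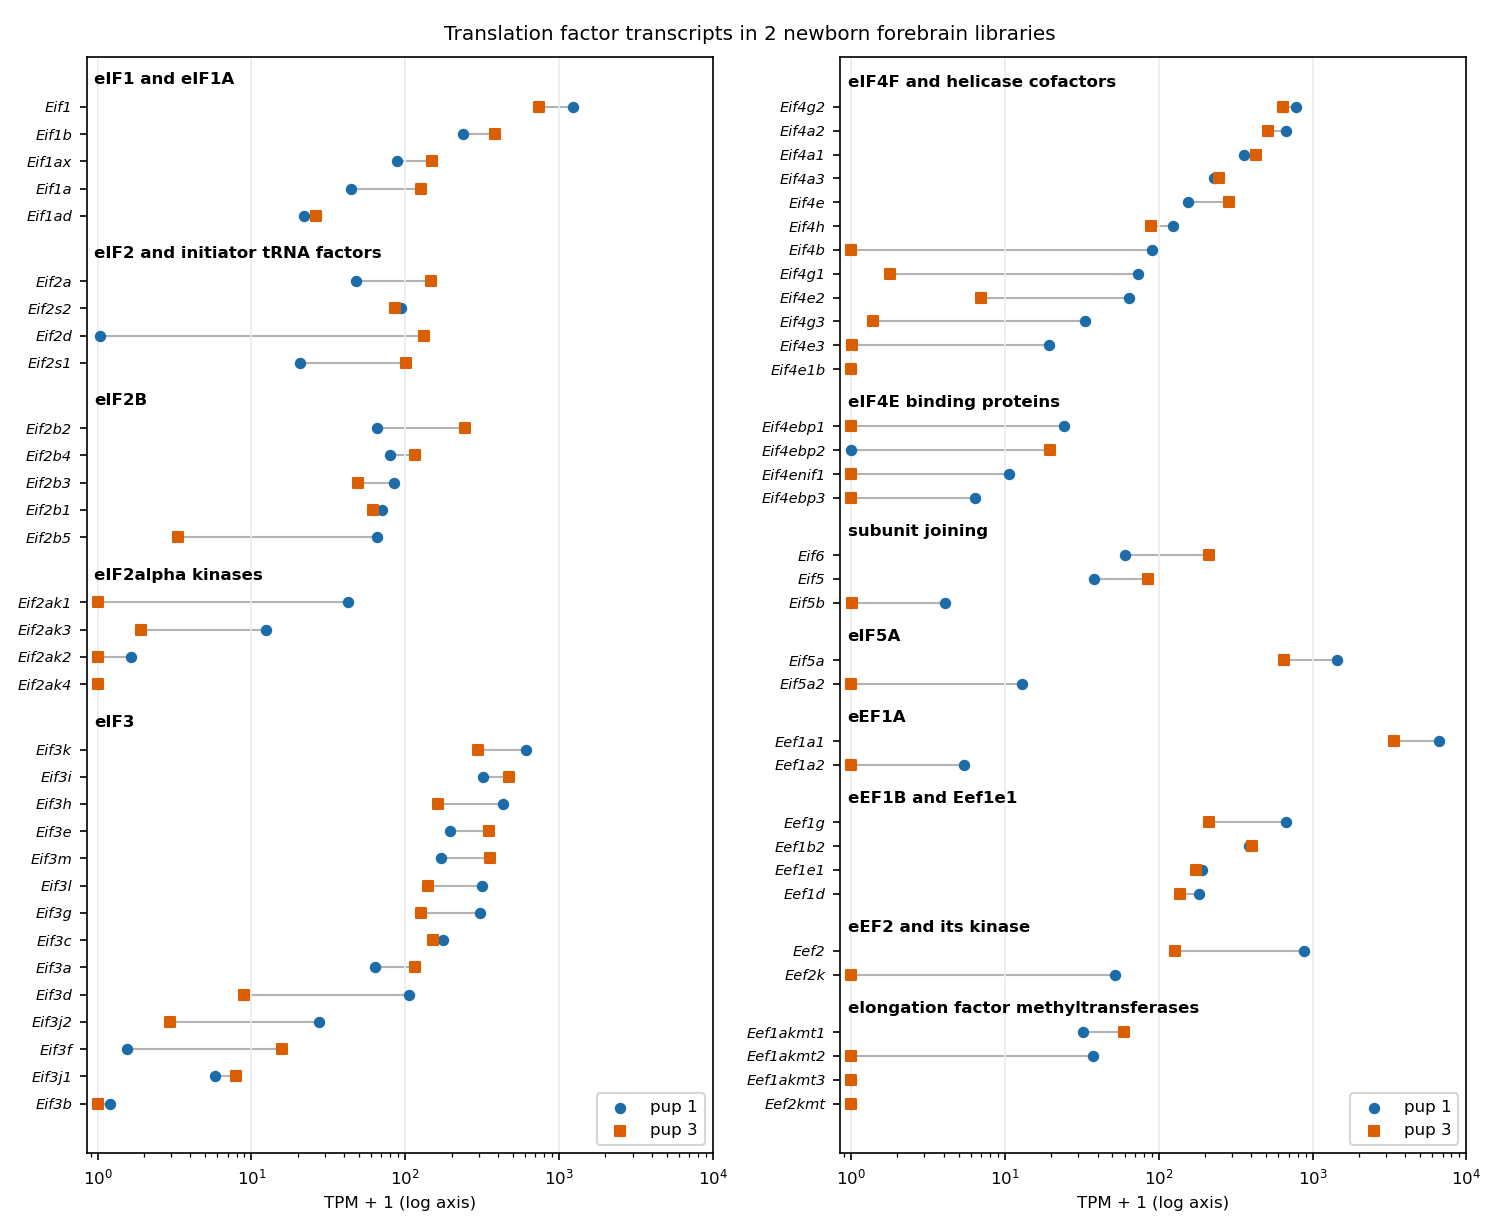
Level of each of the 65 members in pup 1 (blue circles) and pup 3 (orange squares), as TPM + 1 on a log axis, grouped by factor complex and ordered by mean level; grey lines join the pups and a lone square at 1 marks 0 reads in both. By gene TPM the eIF2B subunits lie together in pup 1 (64.0 to 83.7 TPM) and apart in pup 3 (2.33 to 244 TPM). Eif4b, Eef2k and Eif2ak1 stand at 0 TPM in pup 3.

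The cap-binding complex eIF4F joins the cap-binding protein eIF4E, the helicase eIF4A and the scaffold eIF4G. Eif4a2 had 668 and 514 TPM and Eif4a1 had 359.5 and 430.4 TPM, so Eif4a2 was the higher of these helicase genes in both pups by gene TPM. Over protein-coding transcripts alone it was higher in pup 1 (385 against 347 TPM) and lower in pup 3 (353 against 414 TPM). Eif4a1 made up 35.0% of their sum in pup 1 and 45.6% in pup 3. By CPM Eif4a2 was slightly higher in pup 3 (679 and 707). Both genes overlap other genes on the same strand, among them small nucleolar RNA genes within Eif4a2. Pseudogenes near-identical in sequence to Eif4a1 had 22.7 and 37.6 TPM. Eif4a3, a helicase of the exon junction complex rather than of eIF4F, had 228 and 246 TPM (mean 237 ± 12.2, SD, n = 2). Eif4e had 155 and 287 TPM. Its relatives were lower: Eif4e2, a cap-binding repressor, had 63.0 and 6.01 TPM, Eif4e3 had 1181 reads in pup 1 and 1 read in pup 3, and the oocyte-type Eif4e1b had 0 reads in both.

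Within the eIF4G family the noncanonical member was by far the highest. Eif4g2, also called DAP5, lacks the eIF4E-binding part and had 779.6 and 639 TPM (mean 709 ± 99.4, SD, n = 2). The classical scaffold Eif4g1 had 72.6 TPM in pup 1 and 0.780 TPM (55 reads) in pup 3. Eif4g3 had 32.0 and 0.390 TPM. Eif4g2 was therefore 10.7-fold above Eif4g1 in pup 1 and 819-fold above it in pup 3, and both scaffolds were low in pup 3. Of the helicase cofactors, Eif4h had 123 and 88.2 TPM. Eif4b had 88.8 TPM in pup 1 (8850 reads) and 0 reads in pup 3, at least 2576-fold higher in pup 1 against 3 reads in pup 3 (counting error only). It was the most highly counted member in 1 pup among those with 0 reads in the other. Of 13 members at 50 to 100 TPM in pup 1, 2 (15.4%, against 18.1% of all genes) had 0 reads in pup 3, Eif4b and Eef2k.

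Eif4g2 is also set apart by its start codon. Taking for each member the complete coding transcript of GENCODE M21 with the most reads, the coding sequence of 64 of 65 members begins with ATG and that of Eif4g2 with GTG. The 30 bases around the start are shown with those of Eif4a1, a helicase gene of eIF4F. The first annotated codon is in capitals, 5′ to 3′ in the GRCm38 (mm10) assembly.
Eif4g2, chr7:111081530-111081559, minus strand: caagccgccaaaGTGgagagtgcgattgca
Eif4a1, chr11:69672284-69672313, minus strand: attctaaggatcATGtctgcgagtcaggat
The window for Eif4g2 is from its other abundant coding transcript, which held 31.7% of its TPM in pup 1 and 32.0% in pup 3.

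The 4 genes for proteins that bind eIF4E from outside the complex were low, and none was found in both pups, as were 15.2% of all genes from 1 to 10 TPM and 53.1% from 10 to 50 TPM. For Eif4ebp1 the level was 23.2 TPM in pup 1, against 0 reads in pup 3. Eif4ebp2, the form best known from brain, was the reverse, with 0 reads in pup 1 and 18.7 TPM (574 reads) in pup 3. Eif4ebp3 (92 reads) and the eIF4E transporter gene Eif4enif1 (726 reads) were read in pup 1 alone. With 10 TPM or more in pup 1, 6 of 51 members (11.8%, against 26.9% of all genes) had 0 reads in pup 3. In the other direction it was 1 of 40 (2.50%, against 4.78%), which was Eif4ebp2.

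Of 3 genes that act late in initiation, around subunit joining, Eif5 and Eif6 were higher in pup 3 and Eif5b in pup 1. Eif5, which triggers GTP hydrolysis by eIF2, had 36.7 and 84.5 TPM. Eif6, which keeps the large subunit free, had 59.4 and 211 TPM, a 3.56-fold difference. Eif5b, the joining GTPase, was low in both, with 3.10 TPM (580 reads) and 0.0200 TPM (4 reads). Eif5a, which carries the amino acid hypusine and helps the ribosome past stalling stretches, had the opposite order, at 1445 and 655 TPM (mean 1049.8 ± 559, SD, n = 2). Its paralogue Eif5a2 reached 12 TPM in pup 1, with 0 reads in pup 3. Eif5a was 120.2-fold above Eif5a2 in pup 1. In pup 3 Eif5a was at least 24925-fold above Eif5a2, against 3 reads (0.0263 TPM, counting error only). This was the same one-sided picture as for the eEF1A genes.

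The elongation factors were lower in pup 3 as a sum: 9105 TPM in pup 1 and 4502 TPM in pup 3, whereas the initiation members summed to 9088 and 7729 TPM. Of 6 elongation members above 50 TPM, 5 had their higher level in pup 1 (46.6% of all genes of that level); the median of their log2 ratios was -0.70, against 0.26 over 31 initiation members. Eef1a1 alone made up most of the lower sum, and by CPM Eef1e1 had the other order (115 and 125). These groups were not tested against each other. Cytosolic ribosomal protein genes of that level had a median log2 ratio of -0.39. Summed pan-neuronal markers were also lower in pup 3 (11128 and 5569 TPM), mostly through Tubb3 (6275 and 1872 TPM), with 5 of the 7 above 50 TPM lower and Syt1 and Elavl3 higher there. The sums were close for telencephalic markers (596 and 649 TPM) and for radial glia and astrocyte markers (3437 and 3921 TPM). Summed erythroid markers were higher in pup 3 (1750.3 and 3276 TPM), with Hbb-bt and Alas2 lower. The part of cell makeup in the elongation values was not tested.

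Eef2, the translocase that moves the ribosome by 1 codon, had 880.4 TPM in pup 1 (70067 reads) and 126 TPM in pup 3 (8769 reads), a 6.98-fold difference and a mean of 503 ± 533 (SD, n = 2). With Eif3d it was the only member above 50 TPM that was 4-fold or more higher in pup 1 (2 of 37, 5.41%, against 8.29% of all genes). Eif2d and Eif2s1 were the reverse pair (5.41%, against 9.19%). Eef2k, the kinase that inactivates eEF2, was seen at 51.3 TPM in pup 1 alone, pup 3 having 0 reads. The factor and its kinase were thus both lower in pup 3. At a mean of 10 TPM or more, 12 of 49 members (24.5%, against 29.7%) were 4-fold or more higher in pup 1: Eef1akmt2, Eef2, Eef2k, Eif2ak1, Eif2b5, Eif3d, Eif3j2, Eif4b, Eif4e2, Eif4ebp1, Eif4g1 and Eif4g3. Only Eif2d and Eif2s1 (4.08%, against 14.3%) were so in pup 3.

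The eEF1B complex reloads eEF1A with GTP, and its genes were found at 136 TPM or more in both pups. Eef1b2, an exchange subunit, differed little, at 384 and 405 TPM (mean 394 ± 14.9, SD, n = 2). Eef1g, the structural gamma subunit, had 668 and 211 TPM, a 3.16-fold difference. Eef1d, the delta exchange subunit, had 183 and 136 TPM. Eef1e1, which by its symbol belongs here but encodes a protein of the multi-tRNA synthetase complex, had 191 and 173 TPM. Of the 4, only Eef1g passed 2-fold by TPM, while by CPM with TMM factors Eef1d did too (log2 ratio -1.02). The methyltransferases that modify the elongation factors were low: Eef1akmt1 had 31.4 and 58.5 TPM, Eef1akmt2 had 36.1 TPM and 0 reads, and Eef1akmt3 and Eef2kmt had 0 reads in both.

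Transcript tables show which annotated forms the gene levels rest on. Of 37 members above 50 TPM, 31 had the same leading transcript in both pups, 14 of all 37 having 1 transcript only, and the median protein-coding share was 99.9% of TPM in each pup. The leading transcript differed for Eif1a, Eif1ax, Eif2a, Eif2b2, Eif2b4 and Eif2d. Non-coding forms held most of the TPM of Eif1ax in pup 3, where a retained-intron transcript of 416 nt held 69.3% of TPM but 12.4% of reads, and 0 in pup 1. Counting only protein-coding transcripts, Eif1ax had 87.2 TPM in pup 1 and 45.7 TPM in pup 3, which turns its order around (log2 ratio -0.92). The share of a transcript of Eif2a marked for nonsense-mediated decay went from 24.5% in pup 1 to 67.5% in pup 3. In Eif2b2 one retained-intron form took the place of another, and the share of all such forms together was 51.3% in pup 1 and 50.3% in pup 3. For Eif2b4, 87.0% of TPM in pup 3 fell to a transcript that does not match GENCODE M21. The higher TPM of Eif2a in pup 3 was smaller over protein-coding transcripts, at a log2 ratio of 0.61. For Eif2b4 that sum leaves out the unmatched transcript, whose type is not known here, so its log2 ratio of -1.92 is no measure of its coding transcripts. Several of these genes overlap a gene on the other strand (Serp1 with Eif2a, Snx17 with Eif2b4), as 18 of the 65 members do, and the strand setting of the counts is not given, so reads of such partners may be shared.

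**Figure D5:**
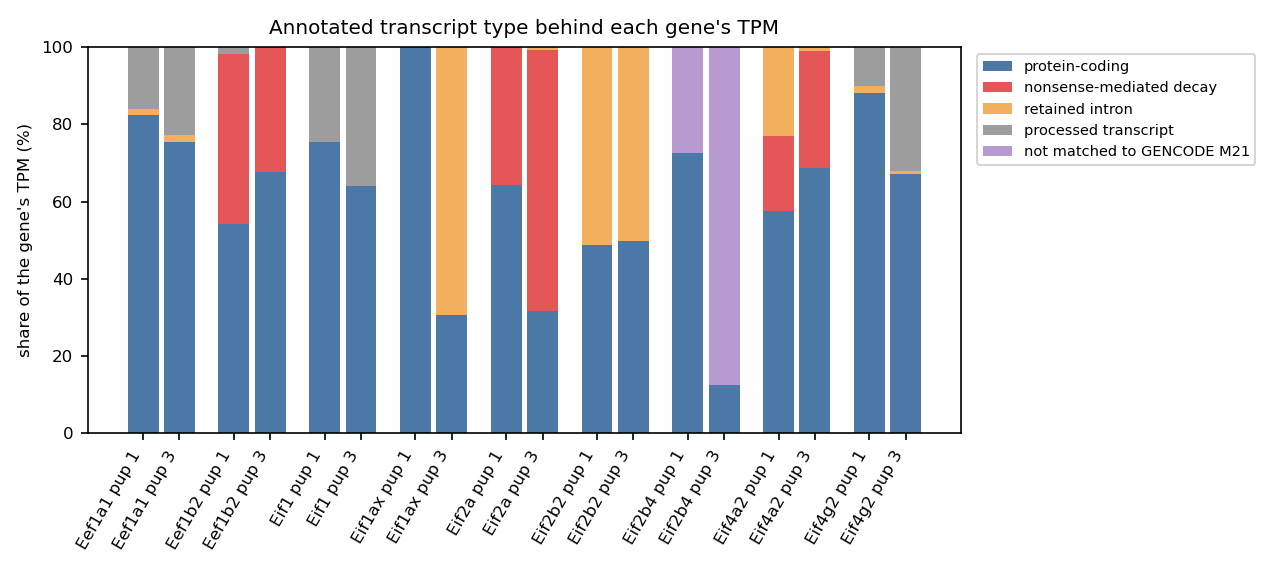
Share of each gene's TPM (%) held by transcripts of each annotated type, for 9 members with mixed transcripts, in pup 1 and pup 3. The protein-coding share of Eif1ax is 100% in pup 1 and 30.7% in pup 3, and that of Eef1a1 is 82.3% and 75.3%.

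Eef1d makes a short elongation factor and a long form known from brain, which acts as a transcription factor. The long transcript encodes 660 codons (1983 nt) against 257 (774 nt) for the short transcript with the most TPM, 1 of several short coding transcripts. The level of the long transcript was 48.5 TPM in pup 1 and 1.79 TPM in pup 3. That was 26.5% and 1.31% of the gene's TPM and 47.6% and 3.72% of its reads. The long form was thus far lower in pup 3 while the gene as a whole was within 2-fold by TPM, though not by CPM with TMM factors. The coding bases of the long form that are absent from this short transcript lie in 2 blocks. The join of the longest block (1133 nt) to the shared part is shown 5′ to 3′, with bases absent from the short transcript in capitals. The few lower-case bases before the first atg are untranslated in the short form (GRCm38, minus strand, chr15:75902679-75902705 and chr15:75901223-75901255).
Eef1d long form: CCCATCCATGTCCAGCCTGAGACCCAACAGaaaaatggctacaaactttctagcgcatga

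Other genes of translation control that do not carry the symbols were taken from a list of 48. In both pups 30 of 48 (62.5%, against 24.7% of all genes) were found. Of 13 above 50 TPM, 6 were 2-fold or more higher in pup 3 (23.4% of all genes of that level) and 1 in pup 1 (19.7% of all genes). The 6 highest by mean level were Paip2, a repressor of poly(A)-binding protein (288 and 235 TPM), the mTOR activator Rheb (288 and 221), Mcts1, a tRNA recycling factor (94.8 and 236), the poly(A)-binding protein gene Pabpc1 (156 and 142), its partner Paip1 (145 and 73.1) and the stress response factor Atf4 (56.0 and 152). Both enzymes that make the hypusine of eIF5A were higher in pup 3: Dohh had 0.810 and 179 TPM and Dhps 6.49 and 149 TPM, while Eif5a itself was lower there. Of the 13, 3 were 4-fold or more higher in pup 3 (9.19% of all genes of that level) and 1 in pup 1 (8.29% of all genes). Besides the hypusine enzymes these were Tufm, the mitochondrial counterpart of eEF1A (33.2 and 138 TPM), and Abce1, which splits ribosomes for recycling (122 and 15.4 TPM). Tufm thus had the opposite order to Eef1a1.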

How the data were processed

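RNA from the forebrain of 2 newborn pups was sequenced from 13 pg each, by mirVana extraction and the Smart-seq method, per the labels. The authors deposited, per gene and per transcript, expected counts (estimated reads), TPM, posterior mean TPM with credibility bounds, and FPKM, per the file headers. The deposited FPKM served as an alternative scaling only. Assembly mm10 and annotation M4 are named in text deposited with the libraries; for the aligner, counter and strand setting, names and versions were not given in the sources used here.

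Gene symbols, types and positions were taken from GENCODE M21 (mm10) through the stable part of the identifier; 42462 of 43346 genes (98.0%) matched. Credibility bounds surround the posterior mean, not always the TPM: Eef1a1 in pup 1 has bounds of 6489 and 6587 around a posterior mean of 6539, below its TPM of 6675. A log2 ratio used a pseudocount of 1 TPM. With 1 library per pup no p-value was computed, and called means past 2-fold at a mean of 50 TPM or more. A level for 0 reads is that of 3 reads, or 0.0730 CPM in pup 1 and 0.100 in pup 3, and covers counting error only. Near-identical copies were sought with BLAST 2.17.0 (95% identity over 200 nt); 17 of 65 members had one. Values are named for members of mean 50 TPM or more, for those past 4-fold at a mean of 10 TPM or more, for both Eef1a genes, and, from the list of related genes, for the 6 highest and those past 4-fold at a mean of 50 TPM or more; other values named were chosen after they were seen. Members and lists were chosen with earlier results of these data known. Steps were tested on simulated data. Alternatives covered detection limit, pseudocount, level filter, FPKM, CPM with edgeR 4.0.16 TMM or DESeq2 1.42.0 factors, posterior mean TPM, rescaling over nuclear genes, protein-coding transcripts and each pup alone. Scripts used R 4.3.3, matplotlib 3.10.9, pandas 2.3.3 and numpy 2.4.6 under Python 3.11.15.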

Additional observations from a re-analysis of the deposited data

How the results depend on the processing

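Of the values that answer a comparison, 91 settings left them within their tolerance and 9 did not. For the ratios of paired genes and the eIF3 range, the tolerance was the SD of the 2 pups around their mean. Each pup alone lies within that SD by construction, so for these values the single-pup settings are no check. FPKM rescaled to the TPM total equals TPM, so that setting could not move a value either. The median member level was 66.2 TPM, 88.2 TPM over members of mean 1 TPM or more, and 64.0 to 85.3 TPM with each pup alone; the number of members at 1 TPM or more ranged from 45 to 56 in the same way. Members 2-fold higher in pup 1 were 8, but 25 with no filter on low values and 18 at a mean of 10 TPM or more. Members 2-fold higher in pup 3 were 8, but 3 at a mean of 100 TPM or more. The log2 ratio of Eef1a1 to Eef1a2, 10.26 to 11.73 with each pup alone and 10.99 as their mean, became 12.78 with a pseudocount of 0.1; that of Eif5a to Eif5a2, 6.80 to 9.36 and 8.08, became 6.05 with a pseudocount of 10. The range over eIF3 subunits, 8.88 to 8.98, became 8.45 by CPM and 5.75 with a pseudocount of 10. With each pup alone, the log2 ratio was -0.89 to -0.25 for Eif4a1 to Eif4a2, 0.36 to 1.16 for Eif4g1 to Eif4g3, 3.41 to 8.49 for Eif4g2 to Eif4g1, 1.28 to 5.36 for Eif4e to Eif4e2, 0.96 to 2.36 for Eif1 to Eif1b, -0.99 to -0.23 for Eif1a to Eif1ax and -2.24 to 1.42 for Eif3j1 to Eif3j2, the 1 pair whose order the pups did not share by gene TPM. With TMM-scaled CPM, the counts past 2-fold were 8 (higher in pup 3) and 9 (higher in pup 1), and Eif1ax changed sign (-0.69). Summing protein-coding transcripts only, chosen after seeing the data, gave 7 and 10; the 10 include Eif2b4, whose unmatched leading transcript was left out. In that sum the pups also differed in the order of Eif4a1 and Eif4a2 (347 and 385 TPM; 414 and 353) and of Eif1a and Eif1ax (43.3 and 87.2; 126 and 45.7). No paired analysis was possible because the 2 libraries form 1 group. With 1 library per pup, differences have no replicate check, and at levels under 50 TPM a gene of either pup was often missing from the other.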
